A study of Mus musculus with 9 samples.

Results

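The subunit genes of the mitochondrial respiratory chain and ATP synthase were followed by RNA sequencing in mouse mammary tumour organoids. Members were chosen by name alone: protein-coding symbols beginning Nduf followed by a, b, c, s or v and a number, Uqcr, Cox4 to Cox8 followed by a, b or c, or Atp5; the symbols Sdha, Sdhb, Sdhc, Sdhd and Cyc1; and the mitochondrial symbols mt-Nd, mt-Co, mt-Cytb and mt-Atp. Of 96 matching genes, 92 reached 1 CPM (counts scaled to a common library size) in at least 4 libraries and are the members, out of 51912 genes in the table and 17289 that could be tested. They comprise 79 genes of the nucleus and all 13 protein-coding genes of mitochondrial DNA, and all 92 were tested. By complex, the nuclear genes number 35 for complex I, 4 for II, 9 for III, 14 for IV and 17 for V, and the mitochondrial genes 7 for I, 1 for III, 3 for IV and 2 for V. The genes Ndufa4 and Ndufa4l2 are counted with complex IV, since the NDUFA4 protein is known as a subunit of that complex despite its name.

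The organoids are small epithelial fragments of MMTV-PyMT tumours, in which a viral oncogene is driven by the MMTV promoter, chiefly in mammary epithelium. The 5 E-cad-KO samples carried Cdh1fl/fl, floxed alleles of the E-cadherin gene, and the 4 WT samples carried Cdh1+/+. All were of the FVB/NJ strain with the transgene MMTV::PyMT and the reporter allele (R26)pCA::mT/mG. Both groups therefore shared the oncogene and the 2-colour Cre reporter, and both were exposed overnight to adeno-Cre, an adenovirus carrying Cre recombinase, which acts only in cells that it enters. They were then kept for 48 h in collagen I gels in a DMEM-based medium with FGF2 before whole gels were frozen. The labels give neither ages nor the animals behind the samples, and p-values therefore describe the spread among these samples.

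Complexes I and II take electrons from NADH and succinate, complex III passes them to cytochrome c, and complex IV hands them to oxygen. Complexes I, III and IV pump protons, and complex V, the ATP synthase, uses the proton gradient to make ATP. Complex II is made from nuclear genes alone, whereas the other complexes combine nuclear subunits with a hydrophobic core encoded in mitochondrial DNA, so their assembly draws on both genomes. Tumour cells are known to run glycolysis and respiration side by side.

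Library totals ran from 44890302 to 64763645 counts, and 1 CPM stood for 44.2 to 64.3 counts. Cdh1, the floxed gene for E-cadherin, had all E-cad-KO libraries below all WT libraries (log2 fold change -1.05, SE 0.16, edgeR adjusted p = 0.0275). Its call was lost without E-cad-KO 1, 3, 4 or 5, without WT 3 and without WT 1 and WT 4 together, and over the 9 fits with 1 library left out its log2 fold change ran from -1.16 to -0.89. Summed over 9 markers of tumour epithelium, levels were 7662 to 12161 CPM in E-cad-KO and 5560 to 15651 CPM in WT, with Epcam at 690.4 to 864 CPM in E-cad-KO and 543 to 776 CPM in WT. The labelled tissue thus had its defining markers in every library. Summed markers of macrophages other than Cd14 reached 72.6 CPM in WT 4, against 6.66 to 18.4 CPM in the other WT libraries and 8.47 to 35.3 CPM in E-cad-KO. Fewer cells of a type and less RNA per cell cannot be told apart in such bulk samples.

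Median log2 fold changes of the nuclear subunit genes were slightly negative in all 5 complexes, from -0.22 to -0.099, while the genes that fell past the test belonged to complexes I, III and V. Of 79 nuclear members, 75 had a negative log2 fold change, as had 52% of all genes tested, and 9 fell past the test, while 0 rose past it. The called genes were Ndufb11, Ndufa5, Ndufb9, Ndufa3, Uqcr11, Atp5j2, Atp5k, Atp5g1 and Atp5o. Their levels fell by 15.8% to 18.8%, and the median over all 79 nuclear members was a log2 fold change of -0.19, a fold of 0.878. Of the 13 mitochondrial genes, 12 had a negative value with a median of -0.11, and edgeR called 0. The median over all 17289 tested genes was -0.0095. Most members have short transcripts, and protein-coding genes under 1000 bases as a class had a median of -0.15; with offsets for length and GC content the nuclear median was -0.11 and 2 members were called.

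A gene was called where edgeR's quasi-likelihood test gave an adjusted p under 0.05 over all genes tested. By that rule 0.503% of all tested genes were called lower and 0.908% higher, 1.41% in either direction. An unadjusted p under 0.05 with a lower level was found for 56 of the 79 nuclear members and for 7.99% of all genes tested. Every E-cad-KO library lay below every WT library for 44 nuclear members and 1 mitochondrial member, against 3.83% of all genes. The count of 9 changed when single libraries were left out. It was 8 without WT 4 and 1 without E-cad-KO 2 or without WT 2. Over all genes, in either direction, those fits called 334, 54 and 105, against 244 in the main fit. The count of members was 0 without any 1 of E-cad-KO 1, 3, 4 and 5, WT 1 and WT 3, or without WT 1 and WT 4 together. There 40 to 61 members had an unadjusted p under 0.05, all lower, and 9 to 122 of all genes were called. DESeq2 called 31 members lower and limma-voom 16, with 3.18% and 1.23% of their tested genes called lower. Upper-quartile factors gave 21 members and 0.873% of genes, the 1 CPM filter 16 and 0.984%, the filter of at least 1 count 4 and 0.246%, and the macrophage covariate 28 and 2.28%, while 0.174% of genes were called lower without WT 1 and WT 4.

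**Figure D1:**
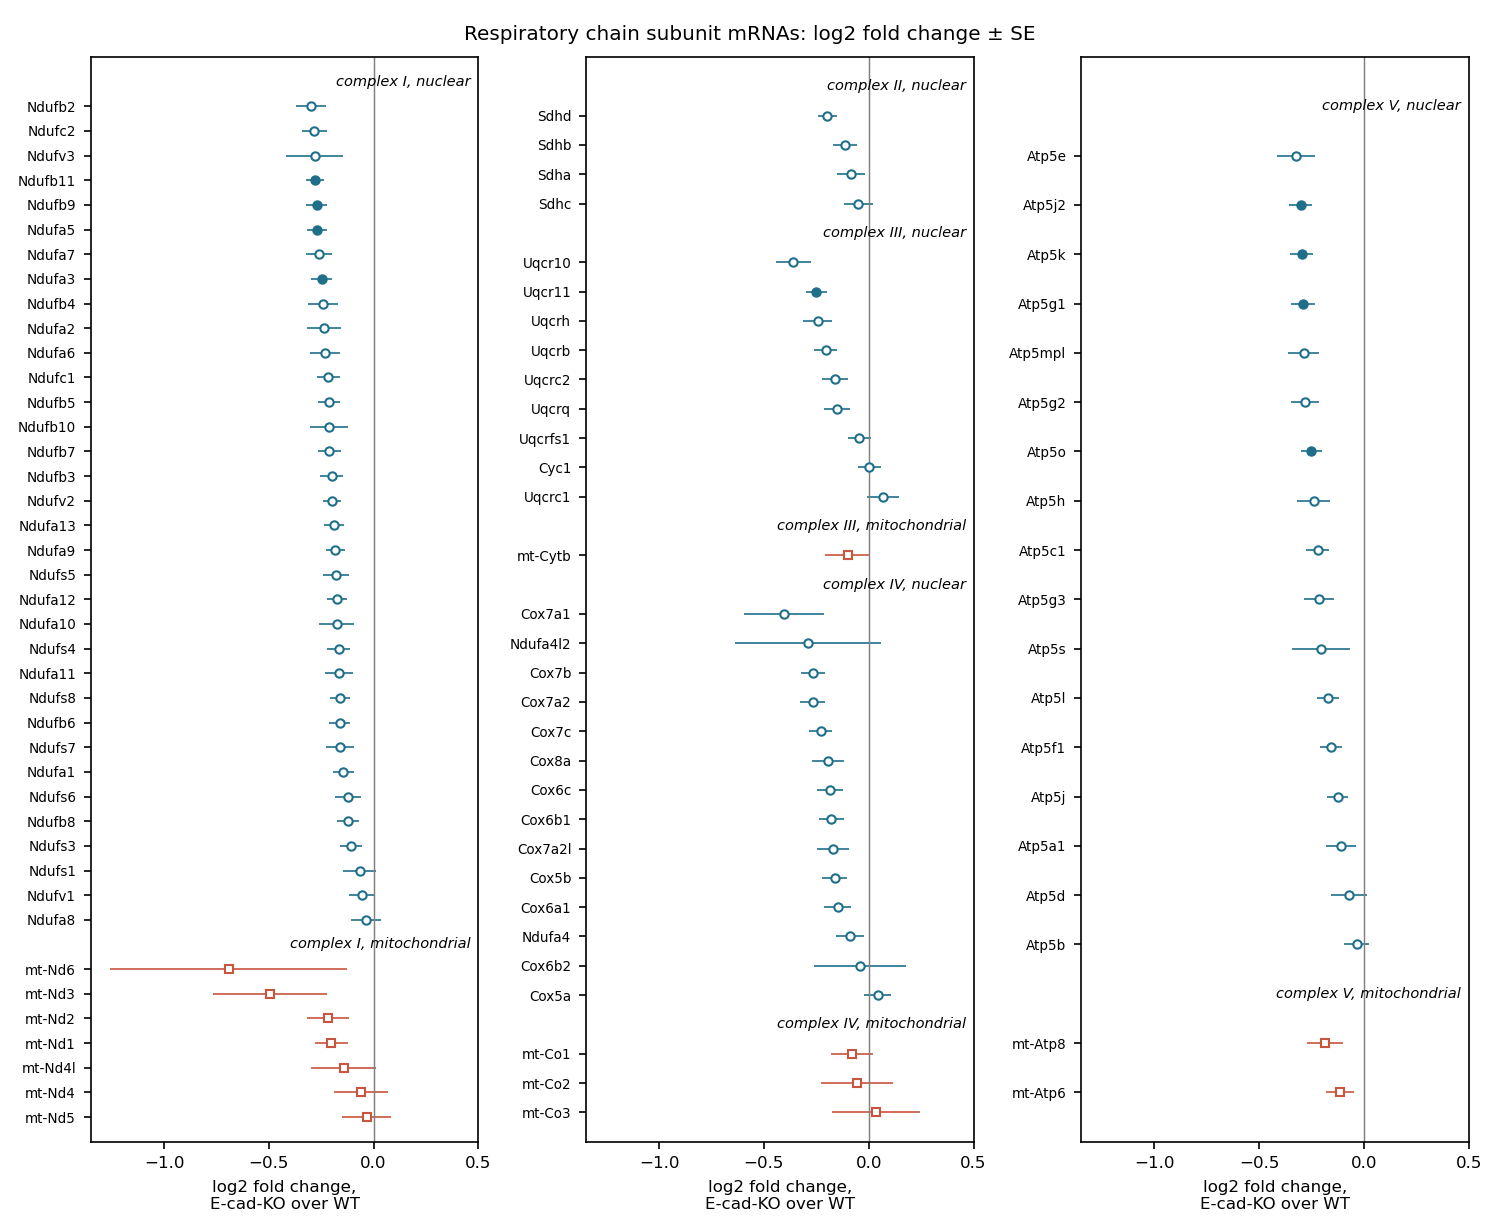
Log2 fold change (E-cad-KO over WT, horizontal axis) of the subunit genes, 1 row per gene with a bar of ± 1 SE (1 member is not drawn), grouped by complex and genome (circles, nuclear; squares, mitochondrial; filled, the 9 called genes). Nuclear genes lie mostly in a narrow band around the median of -0.19 over all 79, while mt-Nd6 and mt-Nd3 have the widest bars among the mitochondrial genes.

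Sequences before the RefSeq start are shown for some called genes as a description. Whether promoters have a part in the lower levels was not tested. Promoters of respiratory genes are known for binding sites of NRF1, ETS-family factors (NRF2, also called GABP), YY1 and the oestrogen-related receptors (ERR). RefSeq promoter windows of 300 bases (250 before the start and 50 after it, GRCm38.p6) were found for 64 of the 79 nuclear members and for 8 of the 9 called ones. The word made of GCGCA, any base and GCGC (NRF1), searched on both strands, was in 16 of the 64 windows, 25%, against 6.66% of 17491 protein-coding promoters. CCGGAAGT (ETS) was in 5, or 7.81% against 5.28%. AAGATGGCG (YY1) was in 6, or 9.38% against 1.92%, and TCAAGGTCA (ERR) in 2, or 3.12% against 0.332%. Words were allowed to overlap each other, and 39.1% of the members' windows held at least 1 of them, against 13.3% of all. Among called genes, the NRF1 word was found for Ndufa5, Atp5k and Atp5o, the ETS word for Uqcr11 and the YY1 word for Atp5j2. RefSeq starts can differ from the gene spans given below. The stretch of Ndufa5 lies inside its span, and those of Atp5k and Uqcr11 do so in part. The 100 bases before the RefSeq start follow for 3 called genes with a word there, in capitals. They are also given for Ndufb11, the called gene with the smallest p, whose window held none of the 4 words.
Ndufa5 (chr6:24527691-24527790, - strand): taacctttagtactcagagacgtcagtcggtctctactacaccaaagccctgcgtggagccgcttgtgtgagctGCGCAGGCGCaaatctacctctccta
Atp5k (chr5:108434400-108434499, - strand): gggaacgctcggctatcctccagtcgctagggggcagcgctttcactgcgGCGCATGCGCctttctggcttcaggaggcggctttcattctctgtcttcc
Uqcr11 (chr10:80406822-80406921, - strand): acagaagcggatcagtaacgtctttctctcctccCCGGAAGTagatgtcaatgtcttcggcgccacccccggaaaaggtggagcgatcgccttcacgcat
Ndufb11 (chrX:20617620-20617719, - strand): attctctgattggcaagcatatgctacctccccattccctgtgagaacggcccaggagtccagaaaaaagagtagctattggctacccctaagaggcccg
These matches describe letters in the windows and do not show that a factor was bound.

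Complex I, the NADH dehydrogenase, had 34 of 35 nuclear members with a negative log2 fold change, 4 of them called, 27 at an unadjusted p under 0.05 and 21 without overlap between the groups. All 4 called genes encode accessory subunits, which surround the catalytic core. Ndufb11 (ENSMUSG00000031059; GRCm38 chromosome X, 20615326 to 20617619, reverse strand) encodes a membrane-arm subunit and overlaps exons of Rbm10 on the other strand. Its levels were 135, 136, 136, 132 and 129 CPM in E-cad-KO 1 to 5, against 166, 160.1, 166 and 157 CPM in WT 1 to 4. All 5 E-cad-KO libraries thus lay within a narrow band below all 4 WT libraries (log2 fold change -0.28, SE 0.044, edgeR adjusted p = 0.0271). Ndufb9 (ENSMUSG00000022354; GRCm38 chromosome 15, 58933756 to 58939488, forward strand) encodes another membrane-arm subunit and overlaps Gm49356 on its own strand. It had 143, 143, 142, 142 and 128 CPM in E-cad-KO 1 to 5, against 171, 166, 171 and 166 CPM in WT 1 to 4. The groups did not overlap, and E-cad-KO 5 was the lowest (log2 fold change -0.27, SE 0.049, edgeR adjusted p = 0.0343).

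Ndufa5 (ENSMUSG00000023089; GRCm38 chromosome 6, 24518666 to 24528013, reverse strand) encodes an accessory subunit of the matrix arm. The stretch shown above, before its RefSeq start but inside this span, holds the NRF1 word. Its levels were 49.8, 48.6, 52.8, 52.4 and 49.0 CPM in E-cad-KO 1 to 5, against 60.8, 59.5, 62.5 and 60.7 CPM in WT 1 to 4. The groups were separated by a gap larger than the spread within either (log2 fold change -0.27, SE 0.048, edgeR adjusted p = 0.0341). Ndufa3 (ENSMUSG00000035674; GRCm38 chromosome 7, 3617373 to 3620327, forward strand), an accessory subunit gene that overlaps Tfpt on the other strand, had 68.4, 65.6, 69.6, 61.9 and 65.8 CPM in E-cad-KO 1 to 5, against 76.2, 78.8, 79.7 and 80.1 CPM in WT 1 to 4. Here too every E-cad-KO library was lower (log2 fold change -0.25, SE 0.049, edgeR adjusted p = 0.0419). These calls were lost in most fits that left out a library. With 1 library left out at a time, Ndufb11 was called in 2 of 9 fits, Ndufa5 and Ndufb9 in 1 and Ndufa3 in 0, with adjusted p-values reaching 0.166, 0.169, 0.179 and 0.357 over all alternatives.

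Over the rest of complex I, the genes Ndufc2 (log2 fold change -0.28, SE 0.062, edgeR adjusted p = 0.0562) and Ndufb2 (log2 fold change -0.30, SE 0.071, edgeR adjusted p = 0.0673), both accessory, had values as negative as those of the called genes but missed the threshold. The 28 accessory genes had a median of -0.21. The 7 nuclear genes of the catalytic core, which carry the flavin and the iron-sulphur clusters and bind ubiquinone, had a median of -0.11 and 0 calls by edgeR, with 3 at an unadjusted p under 0.05 and 1 called lower by DESeq2 and by limma-voom. Of these core genes, Ndufv2 came closest to a call (log2 fold change -0.20, SE 0.044, edgeR adjusted p = 0.0574), at 138 ± 3.68 CPM in E-cad-KO libraries (SD, n = 5) and 158 ± 3.73 CPM in WT libraries (SD, n = 4). Ndufs1, the largest iron-sulphur subunit, stood at 129 ± 9.71 CPM in E-cad-KO libraries (SD, n = 5) and 136 ± 13.1 CPM in WT libraries (SD, n = 4) with overlapping groups. The accessory genes of complex I had a median length of 747.5 bases, against 1623 for its nuclear core genes. With length and GC offsets their medians were -0.12 and -0.067. The split into core and accessory genes was made after the values were seen. Ndufa13 and Ndufb7 lie on chromosome 8, as Cdh1 does, and neither was called.

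**Figure D2:**
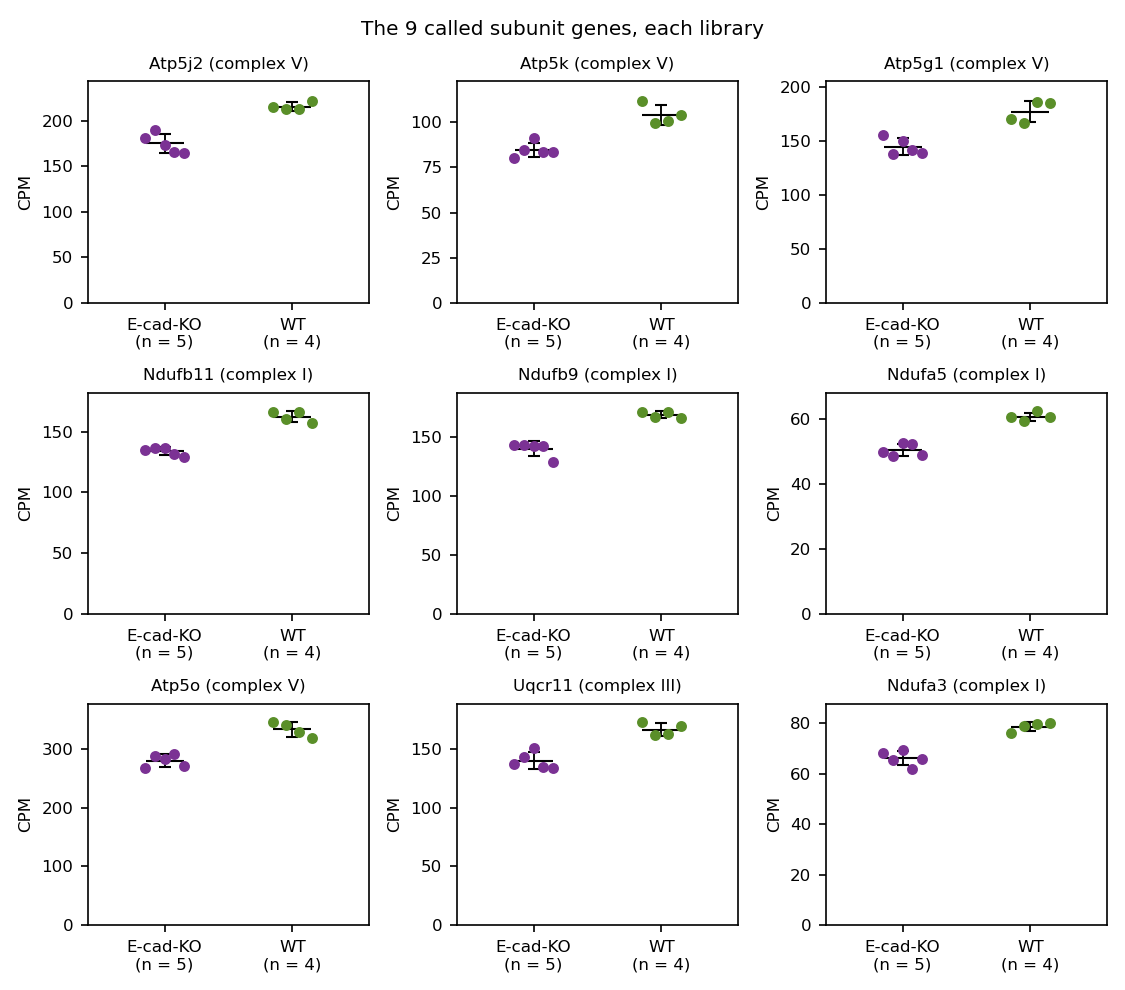
Level in CPM of the 9 called genes in each library (points; bar and whiskers, mean and SD), with E-cad-KO (n = 5) left of WT (n = 4) and every axis starting at 0. In each panel all E-cad-KO points lie below all WT points; in the fit the levels fell by 15.8% to 18.8%.

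Complex II, succinate dehydrogenase, had 4 of 4 members with a negative value and 0 called by edgeR, with 1 at an unadjusted p under 0.05 and 1 called by DESeq2 and by limma-voom. Its median was -0.099, or -0.13 with upper-quartile scaling. The member with that p was Sdhd, which encodes one of the membrane anchors, with 190.0, 192, 188, 182 and 193 CPM in E-cad-KO 1 to 5, against 212, 227, 218 and 209.8 CPM in WT 1 to 4. Its groups did not overlap (log2 fold change -0.20, SE 0.046, edgeR adjusted p = 0.0655). The other anchor, Sdhc, was at 65.6 CPM in E-cad-KO and 67.9 CPM in WT, the flavoprotein Sdha at 177 CPM in E-cad-KO and 187 CPM in WT, and the iron-sulphur subunit Sdhb at 139 CPM in E-cad-KO and 150.3 CPM in WT, all with overlapping groups.

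Complex III, which passes electrons from ubiquinol to cytochrome c, had 7 of 9 nuclear members with a negative value, 1 called, and a median of -0.16. Uqcr11 (ENSMUSG00000020163; GRCm38 chromosome 10, 80402997 to 80406830, reverse strand), which encodes the smallest subunit, had 138, 143, 151, 135 and 134 CPM in E-cad-KO 1 to 5, against 173, 162, 162 and 169.5 CPM in WT 1 to 4. The groups did not overlap (log2 fold change -0.25, SE 0.052, edgeR adjusted p = 0.0476), though it was called in 0 of the 9 fits that left out a library. Uqcr10, another small subunit, had the most negative value of any member of complex III but varied more, with 114, 109.9, 116, 94.8 and 94.4 CPM in E-cad-KO 1 to 5, against 149, 121, 134 and 138 CPM in WT 1 to 4 (log2 fold change -0.36, SE 0.084, edgeR adjusted p = 0.0634). Uqcrb and Uqcrh, which encode a quinone-binding subunit and the hinge protein, had log2 fold changes of -0.21 and -0.24 without overlap or call. The 5 small subunits had a median of -0.24. The 4 genes of the catalytic subunits and core proteins had a median of -0.021. Of these, the core protein Uqcrc2 was lower at an unadjusted p under 0.05 (log2 fold change -0.16, SE 0.061, edgeR adjusted p = 0.214). Its groups overlapped, at 283 ± 12.2 CPM in E-cad-KO libraries (SD, n = 5) and 317 ± 22.1 CPM in WT libraries (SD, n = 4). Cytochrome c1 (Cyc1) stood at 105 ± 5.80 CPM in E-cad-KO libraries (SD, n = 5) and 105 ± 5.01 CPM in WT libraries (SD, n = 4), the Rieske iron-sulphur protein (Uqcrfs1) at 149.5 ± 6.55 CPM in E-cad-KO libraries (SD, n = 5) and 154 ± 8.19 CPM in WT libraries (SD, n = 4), and the core protein Uqcrc1 at 119 ± 6.83 CPM in E-cad-KO libraries (SD, n = 5) and 114 ± 11.5 CPM in WT libraries (SD, n = 4). Whether the small subunits differ from these in their response was not tested. The 5 small subunits had a median transcript length of 535 bases, against 1586 for the other 4 genes. With length and GC offsets the medians were -0.11 and 0.014.

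Complex IV, cytochrome c oxidase, had 13 of 14 nuclear members with a negative value and a median of -0.18. By edgeR 0 were called, with 9 at an unadjusted p under 0.05, 3 called lower by DESeq2 and 2 by limma-voom. Cox7b, a small membrane subunit, was just outside the threshold (log2 fold change -0.27, SE 0.057, edgeR adjusted p = 0.0511), with 199, 221, 217, 211 and 200.2 CPM in E-cad-KO 1 to 5, against 274, 246, 242 and 247 CPM in WT 1 to 4. The 2 groups were apart, and WT 1 was the highest library. Cox7a2, the ubiquitous isoform of its subunit, was also just outside (log2 fold change -0.27, SE 0.059, edgeR adjusted p = 0.056), at 168 ± 7.82 CPM in E-cad-KO libraries (SD, n = 5) and 202 ± 13.1 CPM in WT libraries (SD, n = 4). Cox5a, a subunit on the matrix side, had the only positive value, 0.042. 

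Tissue isoforms of complex IV differed widely in level. Per kilobase of transcript, Cox6b1 was the most abundant nuclear member at 574 CPM per kb, and its isoform gene Cox6b2, known from testis, stood at 6.54 CPM per kb. The muscle form Cox7a1 was at 5.09 CPM per kb, against 277 for Cox7a2. Ndufa4l2, a hypoxia-induced relative of Ndufa4, was the lowest nuclear member at 2.67 CPM per kb, against 445 for Ndufa4. Between the groups, Cox6b1 was at 335 ± 18.8 CPM in E-cad-KO libraries (SD, n = 5) and 379 ± 16.9 CPM in WT libraries (SD, n = 4) without overlap (log2 fold change -0.18, SE 0.059, edgeR adjusted p = 0.158). Cox7a1 was at 1.75 CPM in E-cad-KO and 2.31 CPM in WT with overlap (log2 fold change -0.40, SE 0.19, edgeR adjusted p = 0.322). The subunit 6a and 8 genes of non-muscle tissue, Cox6a1 and Cox8a, had log2 fold changes of -0.15 and -0.19, and Cox7a2l, which joins complexes III and IV into supercomplexes, -0.17, none of them called. The other 4 matching genes failed the minimum of 1 CPM. Over all libraries of a group, the muscle isoform genes Cox8b and Cox6a2 had 2 and 2 counts in E-cad-KO and 28 and 5 in WT. Cox8c and Cox7b2 had 0 counts, which allows up to 0.00587 CPM (3 counts over all libraries, counting error only). Cox4i1, the common isoform of subunit 4, is not among the 92 by name. It was at 361 ± 22.8 CPM in E-cad-KO libraries (SD, n = 5) and 386 ± 38.6 CPM in WT libraries (SD, n = 4) (log2 fold change -0.098, SE 0.078, edgeR adjusted p = 0.583), and the lung isoform Cox4i2 was at 0.181 CPM in E-cad-KO and 0.313 CPM in WT.

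Complex V, the ATP synthase, had 17 of 17 nuclear members with a negative value, 4 called and 12 without overlap, with the lowest median of the complexes, -0.22. Whether the complexes differ from each other was not tested. Atp5j2, now named Atp5mf (ENSMUSG00000038690; GRCm38 chromosome 5, 145183698 to 145192062, reverse strand), and Atp5k, now Atp5me (ENSMUSG00000050856; GRCm38 chromosome 5, 108433244 to 108434448, reverse strand), encode the f and e subunits of the membrane part. Atp5j2 had 181, 190.4, 173, 166 and 165 CPM in E-cad-KO 1 to 5, against 215, 212, 212 and 222 CPM in WT 1 to 4. Atp5k had 79.98, 84.5, 91.3, 83.7 and 83.8 CPM in E-cad-KO 1 to 5, against 112, 99.7, 101 and 104 CPM in WT 1 to 4. Both were lower in every E-cad-KO library (Atp5j2: log2 fold change -0.30, SE 0.055, edgeR adjusted p = 0.0343; Atp5k: log2 fold change -0.30, SE 0.055, edgeR adjusted p = 0.0356). Atp5o (ENSMUSG00000022956; GRCm38 chromosome 16, 91925214 to 91931687, reverse strand) encodes OSCP, which joins the stalk to the catalytic head. It overlaps D430001F17Rik and Gm15976 on the other strand and a second gene model of the same symbol on its own. Its levels were 267, 288, 282, 292 and 271 CPM in E-cad-KO 1 to 5, against 345, 340.4, 328 and 318 CPM in WT 1 to 4, with all E-cad-KO libraries lower (log2 fold change -0.25, SE 0.051, edgeR adjusted p = 0.0436).

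Atp5g1 (ENSMUSG00000006057; GRCm38 chromosome 11, 96068852 to 96075670, reverse strand) is one of 3 genes that encode the same mature subunit c, the ring that turns with proton flow. It had 155, 138, 150.2, 142 and 139 CPM in E-cad-KO 1 to 5, against 171, 167, 186 and 185 CPM in WT 1 to 4, with no overlap (log2 fold change -0.29, SE 0.058, edgeR adjusted p = 0.0421). Of its sister genes, Atp5g2 missed the threshold (log2 fold change -0.28, SE 0.066, edgeR adjusted p = 0.0669) and Atp5g3 had overlapping groups (log2 fold change -0.21, SE 0.071, edgeR adjusted p = 0.161). Of the counts of the 3 genes together, not scaled for length, Atp5g1 held 26.9% ± 1.66 in E-cad-KO and 27.6% ± 2.08 in WT, Atp5g2 25.9% ± 0.773 in E-cad-KO and 26.4% ± 1.19 in WT, and Atp5g3 47.3% ± 1.22 in E-cad-KO and 46.0% ± 1.51 in WT (SD, n = 5 and n = 4). Each difference in share was smaller than the larger of the 2 SDs. Atp5g2 shares 87.4% of its 50-base words with other transcripts, so the counting of its reads is uncertain. Of the catalytic head, Atp5b, the beta subunit, stood at 1001 ± 23.6 CPM in E-cad-KO libraries (SD, n = 5) and 1026 ± 60.8 CPM in WT libraries (SD, n = 4), with overlapping groups. Its log2 fold change, -0.035, was the least negative of the 17 nuclear genes of complex V. Atp5e and Atp5c1 had log2 fold changes of -0.32 and -0.22 without overlap or call. Atp5a1 and Atp5d had -0.11 and -0.071 with overlapping groups. With 1 library left out at a time, Atp5j2 was called in 2 of 9 fits, Atp5k and Atp5o in 1 and Atp5g1 in 0.

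The 13 mitochondrial genes were set against the nuclear ones. Their share of all counts was 6.29%, 5.86%, 6.09%, 7.11% and 5.91% in E-cad-KO 1 to 5 and 6.51%, 6.22%, 6.39% and 7.34% in WT 1 to 4. The groups overlapped, with means of 6.25% ± 0.507 in E-cad-KO (SD, n = 5) and 6.61% ± 0.497 in WT (SD, n = 4). The 79 nuclear genes together held 1.24%, 1.23%, 1.24%, 1.21% and 1.21% in E-cad-KO and 1.32%, 1.33%, 1.35% and 1.39% in WT. Here the groups did not overlap, at 1.23% ± 0.0131 in E-cad-KO (SD, n = 5) and 1.35% ± 0.0317 in WT (SD, n = 4). The ratio of mitochondrial to nuclear subunit counts was 5.11 ± 0.444 in E-cad-KO (SD, n = 5) and 4.91 ± 0.271 in WT (SD, n = 4), with overlap. It was highest in E-cad-KO 4, at 5.88. Without that library the difference of the means was 0.006. Several mitochondrial genes share most of their sequence with nuclear copies, as described below, so how fully their reads were counted is uncertain. The share and the ratio describe the deposited counts and may not give the amounts of mitochondrial mRNA.

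**Figure D3:**
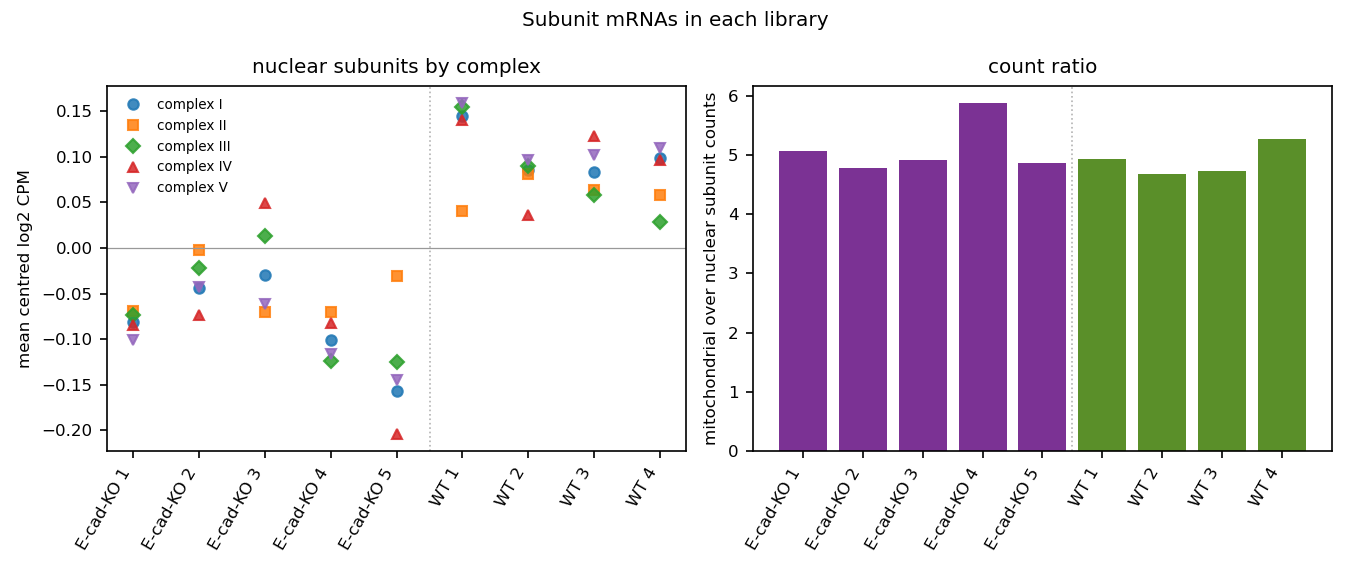
Left, mean log2 CPM of the nuclear genes of each complex in each library, with every gene's 9-library average subtracted; right, the ratio of mitochondrial to nuclear subunit counts (bars), with E-cad-KO (n = 5) left of WT (n = 4). All E-cad-KO values lie below all WT values for complexes I, II, III and V, those of complex IV overlap (up to 0.049 in E-cad-KO and from 0.036 in WT), and the ratio is highest in E-cad-KO 4, at 5.88.

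Gene by gene, edgeR, DESeq2 and limma-voom each called 0 of the 13 mitochondrial genes, and 1 had an unadjusted p under 0.05. That gene, mt-Nd1, a core subunit of the membrane arm of complex I, had 7790, 7561, 7807, 7983 and 6355 CPM in E-cad-KO 1 to 5, against 8760, 8524, 8562 and 8671 CPM in WT 1 to 4. The groups did not overlap, E-cad-KO 5 was the lowest, and the value missed the threshold (log2 fold change -0.20, SE 0.079, edgeR adjusted p = 0.226). mt-Nd2 was at 5545 ± 704 CPM in E-cad-KO libraries (SD, n = 5) and 6447 ± 318 CPM in WT libraries (SD, n = 4) and mt-Atp8, of complex V, at 1868 ± 177 CPM in E-cad-KO libraries (SD, n = 5) and 2127 ± 173 CPM in WT libraries (SD, n = 4), with overlapping groups. The member with the highest level per kilobase, mt-Co1, the catalytic subunit of complex IV, was at 26567 ± 2617 CPM in E-cad-KO libraries (SD, n = 5) and 28082 ± 3101 CPM in WT libraries (SD, n = 4). mt-Cytb, the mitochondrial subunit of complex III, was at 11380 ± 1052 CPM in E-cad-KO libraries (SD, n = 5) and 12206 ± 1664 CPM in WT libraries (SD, n = 4). Neither differed beyond the spread between libraries. mt-Nd4 and mt-Nd5 had values of -0.060 and -0.033. mt-Nd6, which is encoded on the other strand and overlaps mt-Nd5, varied most, with 28.2, 43.0, 39.8, 36.1 and 104 CPM in E-cad-KO 1 to 5, against 171, 83.5, 43.8 and 27.1 CPM in WT 1 to 4. No order of the groups can be read from it. With length and GC offsets, the median of the 13 turned to 0.043 and 5 were negative.

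Levels of the mitochondrial genes differed widely, and nuclear copies of mitochondrial DNA bear on how they can be read. Per kilobase, mitochondrial members ran from 1.87 to 17631 CPM per kb (median 2214) and nuclear members from 2.67 to 574 (median 150.7). By complex the nuclear medians were 91.2 for I, 94.3 for II, 157 for III, 262 for IV and 251 for V. The lowest mitochondrial levels were in genes whose sequence is repeated elsewhere, but not every such gene was low. All of the 50-base words of mt-Co2 were also found in another gene's transcript, 99.9% of those of mt-Co3, 99.5% for mt-Atp6, 98.8% for mt-Nd4l and 98.0% for mt-Nd3. By contrast, the share was 0% for mt-Cytb, mt-Nd1, mt-Atp8 and mt-Nd6. Of 9 annotated copies examined, 7 lie in a block of GRCm38 chromosome 1, from 24611535 to 24616197 on the reverse strand, and Gm13340 and Gm13341 lie on chromosome 2. Of those in the block, Gm28661 differs from mt-Co2 at 0 of 681 aligned bases, Gm28437 from mt-Co3 at 0 of 783, Gm10925 from mt-Atp6 at 0 of 678, Gm10222 from mt-Nd4l at 0 of 294 and Gm28438 from mt-Nd3 at 1 of 345.

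The stretch from base 241 to 300 of mt-Co2 is shown with its copy on chromosome 1 and with Gm13341, a pseudogene on chromosome 2, to show why a short read cannot always be placed. Capitals in Gm13341 mark its 2 bases that differ.
mt-Co2: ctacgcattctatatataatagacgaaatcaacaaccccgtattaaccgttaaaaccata
Gm28661: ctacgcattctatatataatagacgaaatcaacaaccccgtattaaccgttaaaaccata
Gm13341: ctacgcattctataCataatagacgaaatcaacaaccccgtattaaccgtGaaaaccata
mt-Co2 was listed at 1.57 ± 0.160 CPM in E-cad-KO libraries (SD, n = 5) and 1.63 ± 0.240 CPM in WT libraries (SD, n = 4), and mt-Co3 at 1.48 ± 0.306 CPM in E-cad-KO libraries (SD, n = 5) and 1.45 ± 0.205 CPM in WT libraries (SD, n = 4). mt-Nd3 was at 1.68 CPM in E-cad-KO and 2.37 CPM in WT and mt-Nd4l at 5.35 CPM in E-cad-KO and 5.92 CPM in WT. mt-Atp6, though shared to 99.5%, was higher, at 269 CPM in E-cad-KO and 291 CPM in WT. That is 410 CPM per kb, above the 123 of mt-Nd6, of whose words 0% were shared. Per kilobase, mt-Co2 was at 2.33 and mt-Co3 at 1.87 CPM per kb, against 17631 for mt-Co1, whose protein belongs to the same enzyme. The 7 copies on chromosome 1 were at 0.0325 to 0.511 CPM in E-cad-KO and 0.0416 to 0.996 CPM in WT. On chromosome 2, Gm13340 was at 3.96 CPM in E-cad-KO and 4.75 CPM in WT, and Gm13341 at 1.66 CPM in E-cad-KO and 1.74 CPM in WT. How the authors' counting treated reads with several matching places is not given in the sources used here, so the levels of these 5 genes are uncertain. The same holds in part for mt-Nd4 and mt-Co1, with 62.2% and 51.1% of their words shared. Of the nuclear members, 10 had over 25% of their words shared, among them Atp5g2 (87.4%), Atp5l (68.5%) and Cox7c (52.95%). Their levels carry the same doubt in part. Over the 6 mitochondrial genes with under 50% of words shared, the median log2 fold change was -0.19, against -0.11 for all 13. With length and GC offsets the median of these 6 was -0.015, and 3 were negative.

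**Figure D4:**
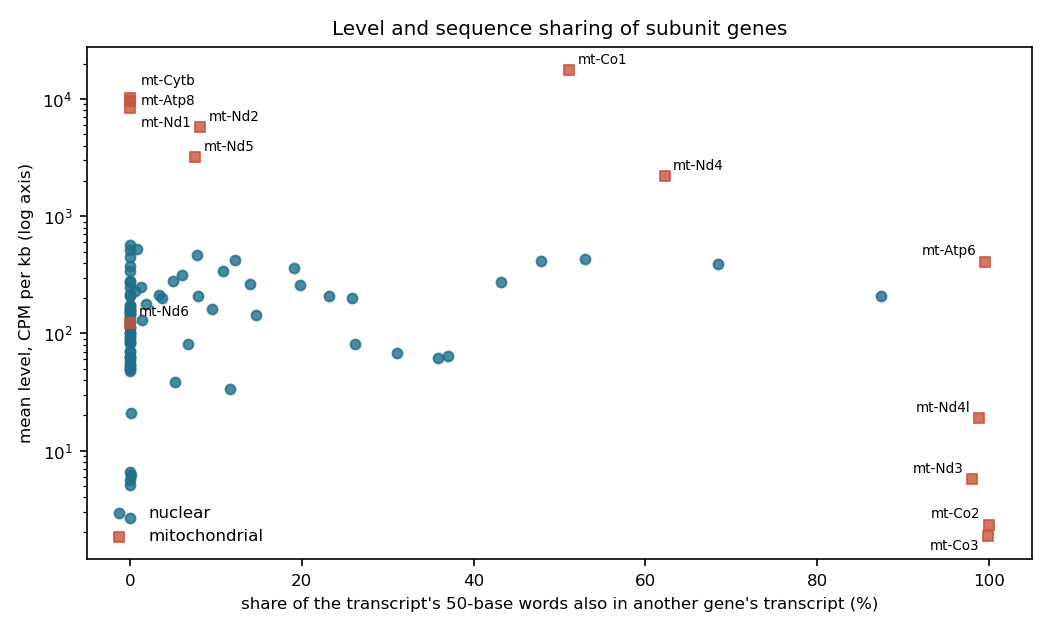
Mean level (CPM per kb, log axis) of the subunit genes (1 member is not drawn) against the share of its 50-base words also found in another gene's transcript, for nuclear (circles) and mitochondrial (squares) genes. The mitochondrial genes at 1.87 to 18.9 CPM per kb are mt-Co2, mt-Co3, mt-Nd3 and mt-Nd4l, all with 98.0% or more of their words shared. mt-Atp6, with 99.5% shared, stands at 410 CPM per kb.

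Transcript length moved with the values. The nuclear members are short, with a median length of 865 bases against 2731 for all genes tested. Among protein-coding genes outside the members, the median log2 fold change was -0.11 in the shortest eighth (204 to 1366 bases) and 0.044 in the longest (5944 bases and more). Of the 894 tested protein-coding genes under 1000 bases, members included, 76.1% had a negative value, 28.3% a lower level at an unadjusted p under 0.05 and 2.68% a call, and the groups were apart and lower for 15.8%. The 46 nuclear members of that length had a median of -0.22 with 39 at an unadjusted p under 0.05 and 8 called, against a median of -0.15 for all 894, and the 33 longer ones had a median of -0.16 with 1 called. Over the 79 nuclear members, log2 length and log2 fold change had a Pearson correlation of 0.342 and a Spearman correlation of 0.349, given as a description since the genes share their libraries. By library, the median centred level of short genes outside the members was -0.117 to -0.00465 in E-cad-KO and 0.0612 to 0.0962 in WT, apart in the same direction as the subunits.

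**Figure D5:**
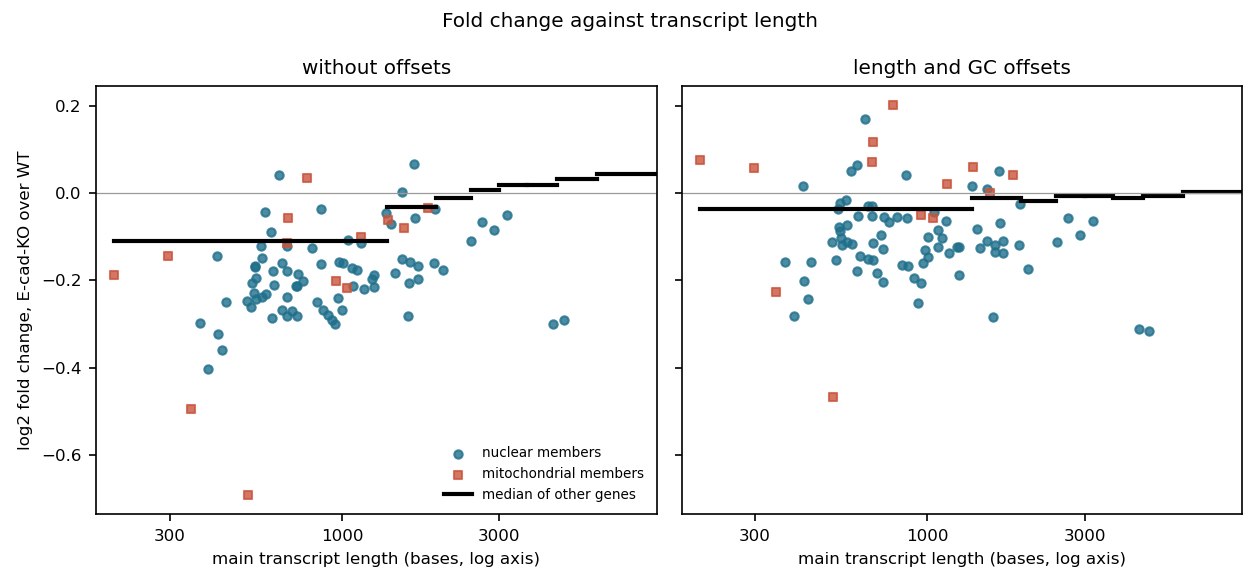
Log2 fold change (E-cad-KO over WT) of the nuclear (circles) and mitochondrial (squares) genes against transcript length (log axis; 1 member is not drawn), without offsets on the left and with length and GC offsets on the right; black bars are medians of other protein-coding genes by eighths of length, the last drawn only to the edge of the axis. The black bars run from -0.11 to 0.044 on the left and from -0.036 to 0.0028 on the right, and the 79 nuclear members have medians of -0.19 without and -0.11 with offsets.

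With offsets that level length and GC content in each library, 70 of the 79 nuclear members had a negative value, and their median was -0.11, against -0.013 for all genes and -0.053 for protein-coding genes under 1000 bases. By complex the medians were then -0.12 for I, -0.080 for II, -0.10 for III, -0.075 for IV and -0.14 for V. Of the 9 calls, Ndufb11 (edgeR adjusted p = 0.0414 with offsets) and Atp5g1 (edgeR adjusted p = 0.0414 with offsets) remained, with 0.457% of all genes called lower. For Atp5g1 the length used was 4715 bases, that of its longest principal transcript, and another transcript may be the one present.

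Genes of neighbouring pathways were counted the same way. Cytosolic ribosomal protein genes, short and highly expressed, were all negative, 78 of 78, with a median of -0.26, or -0.18 with length and GC offsets, against -0.19 and -0.11 for the nuclear subunits. Of them 1 was called (Rps21, log2 fold change -0.35, SE 0.070, edgeR adjusted p = 0.0421), 66 were lower at an unadjusted p under 0.05, and DESeq2 called 22 lower and limma-voom 11. Mitochondrial ribosomal protein genes, whose products translate the 13 mitochondrial mRNAs, were negative for 65 of 77 with a median of -0.097, and 2 fell: Mrps16 (log2 fold change -0.31, at 38.7 CPM in E-cad-KO and 48.0 CPM in WT) and Mrpl48 (log2 fold change -0.29, at 37.6 CPM in E-cad-KO and 46.0 CPM in WT). Of the genes for import of proteins into mitochondria, 19 of 23 were negative and Timm17b, a part of the inner membrane channel, fell (log2 fold change -0.28, at 26.5 CPM in E-cad-KO and 32.3 CPM in WT). Of 51 assembly factor genes, 36 were negative and 1 fell, Fmc1, an assembly factor of ATP synthase (log2 fold change -0.49, SE 0.091, edgeR adjusted p = 0.0348). In the tricarboxylic acid cycle, 11 of 16 were negative and Idh3g, a subunit of isocitrate dehydrogenase, fell (log2 fold change -0.25, at 127 CPM in E-cad-KO and 150.2 CPM in WT). At an unadjusted p under 0.05, 24 mitochondrial ribosomal, 7 import, 10 assembly and 5 cycle genes were lower; DESeq2 called 6, 3, 4 and 2 of them lower, and limma-voom 4, 1, 2 and 2. None of these lists had a gene called higher by edgeR. Of all genes, 7.99% were lower at an unadjusted p under 0.05, and DESeq2 and limma-voom called 3.18% and 1.23% lower. With length and GC offsets, mitochondrial ribosomal genes were negative for 49 of 77, with a median of -0.052 and 2 called lower. The medians with offsets were -0.087 for import, -0.037 for assembly and -0.0065 for cycle genes, with 1, 0 and 0 called lower. Respiratory genes outside the name rule, among them Ndufab1 of complex I and cytochrome c (Cycs), were negative for 6 of 6 with a median of -0.071 and 0 called by edgeR, DESeq2 or limma-voom, with 0 at an unadjusted p under 0.05. Ndufab1 stood at 104 CPM in E-cad-KO and 106 CPM in WT, and Cycs at 169 CPM in E-cad-KO and 173 CPM in WT.

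Regulators of mitochondrial content did not move one way. Of 12 genes for transcription factors and coactivators of mitochondrial biogenesis, 6 were negative and 6 positive (median 0.0011), and edgeR called 0, with 1 at an unadjusted p under 0.05 (Ppara, at 0.286 CPM in E-cad-KO and 0.474 CPM in WT) and 0 by DESeq2 or limma-voom. Of 25 genes for upkeep and transcription of mitochondrial DNA, 14 were negative (median -0.0061) and edgeR called 0, with 3 at an unadjusted p under 0.05, among them Slirp (-0.18), which stabilises mitochondrial mRNAs, and 3 called lower by DESeq2 and 1 by limma-voom. In glycolysis 16 of 17 genes were negative with a median of -0.13 and 0 called by edgeR, with 1 at an unadjusted p under 0.05 and 0 by DESeq2 or limma-voom. With length and GC offsets the glycolysis median was -0.17, against -0.11 for the nuclear subunits, and 0 were called lower. Gapdh, for example, was at 1312 ± 285 CPM in E-cad-KO libraries (SD, n = 5) and 1625 ± 520.3 CPM in WT libraries (SD, n = 4), with overlapping groups. Hypoxia response genes were negative for 10 of 12 (median -0.11) with 0 called by edgeR, 1 at an unadjusted p under 0.05, 1 called higher by DESeq2 and 0 by limma-voom. The gene with the smallest p, Adm, a vasodilator peptide, was higher without overlap, at 9.78 ± 3.04 CPM in E-cad-KO libraries (SD, n = 5) and 5.66 ± 1.29 CPM in WT libraries (SD, n = 4) (log2 fold change 0.79, SE 0.23, edgeR adjusted p = 0.123). Uncoupling, carrier and antioxidant genes were negative for 8 of 13 (median -0.086), with 0 called by edgeR and 2 at an unadjusted p under 0.05, Prdx3 and Txn2, 1 called lower by DESeq2 and 0 by limma-voom.

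Markers of other cells were set beside the subunit genes. Endothelial markers were negative for 6 of 6, summing to 5.66 to 9.02 CPM in E-cad-KO and 7.73 to 13.3 CPM in WT with overlap, and edgeR called 0, with 2 at an unadjusted p under 0.05, 1 called lower by DESeq2 and 0 by limma-voom. Fibroblast markers were negative for 6 of 8, summing to 127 to 217 CPM in E-cad-KO and 63.0 to 354 CPM in WT, and macrophage markers (Cd14 included) for 8 of 10, summing to 292.5 to 374.5 CPM in E-cad-KO and 239 to 400.2 CPM in WT, both with 0 called by edgeR, DESeq2 or limma-voom and 0 at an unadjusted p under 0.05. Cd14 alone made up most of the macrophage sum, at 257 to 366 CPM in E-cad-KO and 167 to 392 CPM in WT. Without it the sums overlapped as well, at 8.47 to 35.3 CPM in E-cad-KO and 6.66 to 72.6 CPM in WT. Of 8 adipocyte markers 3 could be tested and 2 were negative, at sums of 10.9 to 14.8 CPM in E-cad-KO and 11.7 to 50.9 CPM in WT, with 0 called by edgeR, DESeq2 or limma-voom, 1 at an unadjusted p under 0.05, and Lep and Ucp1 under 0.1 CPM in every library. Skeletal muscle markers, from a tissue with a dense respiratory chain, summed to 6.37 to 12.3 CPM in E-cad-KO and 5.83 to 7.17 CPM in WT, and 3 of the 4 that could be tested were positive, with 0 called by edgeR, 2 at an unadjusted p under 0.05 and 1 called higher by DESeq2 and by limma-voom. The tumour epithelium markers described above were positive for 5 of 9, with 0 called by edgeR and 5 at an unadjusted p under 0.05, of which 1 was lower. DESeq2 called 3 higher and 1 lower, and limma-voom 2 higher and 1 lower. The sums overlapped between the groups for each of these cell types, and their part in the subunit values was not tested beyond the fits without WT 4 and with a macrophage covariate.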

How the data were processed

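RNA was measured in organoids of 2 groups, 5 E-cad-KO and 4 WT. Per the labels' protocols, RNA was purified with the RNeasy kit and libraries were made with the Illumina TruSeq stranded mRNA kit. The deposited values are raw gene counts, which the authors made, per the submitters' processing notes, with Bowtie2, TopHat2 and HTSeq on GRCm38. Roles, versions, annotation release and strand setting were not given in the sources used here, so overlaps with other genes are stated for the called members. Most overlaps of uncalled members, such as Ndufb2, Uqcrb and Uqcrc2, are left unmarked. Opposite-strand overlaps were found for 24 of the 79 nuclear and 3 of the 13 mitochondrial members. Values from log2 scales were computed here. The values of 1 member are not reported here singly, though it enters every count and median.

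Genes were tested with edgeR 4.0.16 in R 4.3.3 (TMM factors, filterByExpr, robust quasi-likelihood F-test, group as the only term, Benjamini-Hochberg adjustment over 17289 genes), two-sided, and called at an adjusted p under 0.05. The routines were tested on simulated data with planted changes larger than those of the called members. No trend with transcript length was planted. That test therefore does not cover changes as small as those of the called members. CPM uses TMM-scaled library sizes, and the SE is the size of the log2 fold change divided by the square root of F. Lengths, overlaps and words of 50 bases came from GENCODE M21 and are those of the longest principal transcript. Promoters came from RefSeq (GRCm38.p6). No 2 libraries of the same group agreed within sampling noise (smallest chi-square per degree of freedom 14.8). Intervals and floors cover counting error only.

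The rule for naming took Cdh1, called members, in each complex the 4 nuclear members with the smallest p and those with the highest and lowest level, all mitochondrial members, tissue isoforms, members without overlap, and from each other list its called genes and up to 3 with the smallest p. Core genes with overlapping groups, Ndufab1 and Cycs were named after their values were seen. The members and lists were chosen with earlier results of these data known. Alternatives were other size factors and filters, DESeq2 1.42.0, limma-voom (limma 3.58.1), a block for the replicate number, omission of each library, WT 1 and WT 4 left out, and offsets for length and GC content. A macrophage covariate, the mitochondrial genes with few shared words and counts that include pseudogene copies were added after seeing the data.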

Additional observations from a re-analysis of the deposited data

Results flagged for a closer look

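Of 128 groups screened (64 genes and measures, 5 E-cad-KO or 4 WT libraries each), 16 held a library far from the others in relation to the group's range. Chance flags about 5% of groups, and the values share libraries.

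In E-cad-KO 3, Cox7a2l was high at 297.6 CPM and Ndufa4l2 at 3.89 CPM. In E-cad-KO 5, Ndufb9 was low at 128 CPM, Cox8a at 218.5 CPM and mt-Nd1 at 6355 CPM, while mt-Nd6 was high at 104 CPM. In E-cad-KO 4, mt-Atp6 was high at 306.5 CPM and mt-Nd5 at 7019 CPM, and so was the ratio of mitochondrial to nuclear subunit counts, at 5.88. In E-cad-KO 1, mt-Nd4l was high at 6.30 CPM, and in E-cad-KO 2 Cdh1 was high at 118 CPM, still below every WT library. In WT 1, Cox7b was high at 274.0 CPM, Cox7c at 276.7 CPM and Uqcrb at 173.5 CPM, and the median centred log2 level of short protein-coding genes outside the members was high as well, at 0.0962. In WT 4, mt-Nd4l was high at 7.96 CPM.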

How the results depend on the processing

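The negative medians of the nuclear subunits (all 79 and by complex) kept their sign under every alternative. With 1 library left out the median of the 79 ran from -0.21 to -0.16. With length and GC offsets it was -0.11, and -0.12 for complex I, -0.075 for IV and -0.14 for V, and complex II was at -0.13 with upper-quartile factors, which shift the median of all genes to -0.042. The mitochondrial median was 0.043 with offsets, -0.19 over genes with under 50% of words shared (-0.015 with offsets) and -0.15 to -0.089 with 1 library left out.

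Members called numbered 9. The count was 21 with upper-quartile factors, 4 with a filter of at least 1 count, 16 with 1 CPM in 4 libraries, 31 with DESeq2, 16 with limma-voom, 28 with the macrophage covariate (all 9 among them), 2 with offsets and 0 without WT 1 and WT 4. It ran from 0 to 8 with 1 library left out, while calls over all genes ran from 9 to 334, against 244 in the main fit. With the replicate block it was 0, as was the count over all genes tested, with 39 members at an unadjusted p under 0.05. Same-numbered samples had correlations of -0.32 to 0.28, and differently numbered ones of -0.54 to 0.53. So few values cannot show whether the numbers pair the samples.

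Cdh1 was at -0.99 with the replicate block (edgeR adjusted p = 0.173), -0.94 without WT 1 and WT 4 (edgeR adjusted p = 0.0546) and -1.16 to -0.89 with 1 library left out (edgeR adjusted p up to 0.0904).

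Signs of uncalled genes changed. With offsets, log2 fold changes were 0.052 for Cox6b2, 0.065 for Ndufa4, 0.073 for mt-Atp6, 0.077 for mt-Atp8, 0.12 for mt-Co2, 0.021 for mt-Cytb, 0.061 for mt-Nd4, 0.058 for mt-Nd4l and 0.043 for mt-Nd5. With limma-voom they were 0.20 for Cox6b2, -0.012 for Cyc1, 0.035 for mt-Co2, -0.019 for mt-Co3 and 0.016 for mt-Nd4. Without WT 1 and WT 4 they were 0.31 for Cox6b2, -0.040 for Cyc1, 0.028 for mt-Co1, 0.087 for mt-Co2, -0.099 for mt-Co3, 0.033 for mt-Nd4 and 0.021 for mt-Nd4l. Upper-quartile factors gave -0.029 for Cyc1, and the replicate block 0.036 for Cox6b2. With 1 library left out, values ran from -0.068 to 0.0006 for Atp5b, -0.16 to 0.24 for Cox6b2, -0.024 to 0.036 for Cyc1, -0.57 to 0.029 for Ndufa4l2, -0.14 to 0.004 for mt-Co1, -0.12 to 0.047 for mt-Co2, -0.028 to 0.15 for mt-Co3, -0.13 to 0.077 for mt-Nd4, -0.20 to 0.033 for mt-Nd4l and -0.11 to 0.059 for mt-Nd5. The cause was not tested. The genes listed include mt-Co2, at 1.57 CPM in E-cad-KO and 1.63 CPM in WT. They also include mt-Co1, at 26567 CPM in E-cad-KO and 28082 CPM in WT. In these libraries 1 CPM stands for 44.2 to 64.3 counts.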
